A study of Mus musculus with 661 samples.

Results

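Arteriolar endothelial cells from the endosteum (AEC) and sinusoidal endothelial cells from the central marrow (SEC) of mouse bones were set against each other, first in young mice and then in old mice, to see which genes separate the 2 vascular zones at both ages. All AEC and SEC libraries whose names carry a library number above 26000 were taken. Within these numbers all AEC lie in a later range, while 46 of 70 young and 47 of 71 old SEC lie in an earlier range that holds no AEC. This gave 188 of the 307 endothelial cells and of the 661 cells in all, in 4 groups of 24 young AEC, 70 young SEC, 23 old AEC and 71 old SEC. Wild-type C57BL/6 mice of both sexes were used, about 2 months old in the young and about 24 months old in the old groups, and the endothelial and mesenchymal cells together came from 3 young and 4 old mice. The paper defines AEC as endosteal cells that are Ter119-, CD45-, CD31+, high for Sca-1 and low for CD105. It defines SEC as central marrow cells that are Ter119-, CD45-, CD31+, low for Sca-1 and high for CD105. By its index sorting data the marrow endothelial cells were mostly SEC, and it calls the endosteal ones dominated by AEC. Whether each cell lay inside the gate of its name is thus not certain. Endosteal and marrow cells were released with collagenase. Endosteum came from crushed bones of leg, arm and pelvis and was digested for 1 hour, and marrow was flushed from femurs and digested for 10 minutes in each of 2 rounds. Location, bones, gate and digestion differ together between AEC and SEC and cannot be told apart.

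Blood enters the marrow through arterioles, many of them near the bone surface, and passes into a wide net of sinusoids, thin-walled and leaky venous vessels through which new blood cells leave. Sinusoidal endothelium is known for clearing waste molecules from the blood through scavenger receptors, and for the adhesion molecules on which blood cells enter and leave. Arteriolar endothelium is known for Notch ligands and their targets, for gap junction proteins, and for a closed wall with a continuous basement membrane. Endothelial cells of both zones also make factors on which hematopoietic stem cells (HSC) depend.

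Each sample was 1 cell, sequenced with full-length, plate-based chemistry after 21 cycles of PCR, and the deposited values are read counts per gene without molecular identifiers. Summed over nuclear genes, a young AEC held 79537 to 381711 counts (median 278660), a young SEC 149085 to 487257 (median 314844), an old AEC 148403 to 467930 (median 262256) and an old SEC 71320 to 454362 (median 302201). A cell had counts for a median of 5595 genes in young AEC, 6280 in young SEC, 5358 in old AEC and 5953 in old SEC, so AEC were somewhat shallower at both ages. The mitochondrial share was a median of 1.46%, 1.41%, 1.17% and 1.36% in the same order, and its highest values were 14.9% in 1 young AEC and 8.10% in 1 old SEC. Counts of the cells of a group were summed and scaled to counts per 1000000 (CPM). The labels do not name the mouse of a cell, so each group is 1 sample, no test was possible, and no difference given here has a replicate check. Intervals are 95% intervals, exact Poisson for CPM and Clopper-Pearson for shares, and cover counting error only. Differences are given as the log2 ratio of AEC over SEC after adding 1 CPM to each, so that a positive value is higher in AEC.

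The genes of the sort were read first as a check of the labels. Ly6a, which encodes Sca-1, stood at 1104 CPM in young AEC and 208 CPM in young SEC, and at 1465 and 528 CPM in the old cells. Eng, which encodes CD105, went the other way, at 1208 and 2403 CPM in young AEC and SEC and at 1641 and 2263 CPM in old AEC and SEC. Both genes lay on the side of the paper's definition, and the log2 ratio of Ly6a was 2.41 in young and 1.47 in old cells. Pecam1, the gene of CD31, was abundant everywhere (712 to 1697 CPM), and Ptprc, the gene of CD45, did not pass 3.04 CPM in any group.

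Markers of the zones that the sort did not use were then compared. Stab2 encodes a scavenger receptor for hyaluronan and other waste molecules and marks sinusoids. It stood at 798 CPM (776 to 820) in young AEC and 7177 CPM (7141 to 7212) in young SEC, and at 47.9 CPM (42.7 to 53.6) in old AEC and 5875 CPM (5842 to 5908) in old SEC. At least 10 CPM of Stab2 was found in 11 of 24 young AEC, 70 of 70 young SEC, 3 of 23 old AEC and 58 of 71 old SEC. The highest young AEC held 9206 CPM of Stab2, against a median of 7096 CPM in young SEC. Emcn, often used as a marker of marrow vessels, did not separate the zones, with 538 and 628 CPM in young AEC and SEC, 446 and 517 CPM in old AEC and SEC, and log2 ratios of -0.22 and -0.21. Cdh5, the cadherin of endothelial junctions, lay between 552 and 616 CPM in all 4 groups. All 19 genes of a pan-endothelial list were measured and none passed a 4-fold difference in either age (median log2 ratio -0.21 in young, -0.09 in old), which does not exclude a part of other cells.

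In these libraries the sorted populations did not hold the same mixture of cells at the 2 ages. The labels give each cell a cluster from the study, built from the genes of these same cells, among them E3 and E4 (arteriolar-like), E5 (arterioles), E6 (transitional), E7 (sinusoidal-like) and E1 and E2 (doublets and pericytes). Clusters E3 to E5 held 15 of 24 young AEC (62.5%, 40.6% to 81.2%) and 20 of 23 old AEC (87.0%, 66.4% to 97.2%), against 0 of 70 young SEC (which allows up to 5.13%) and 10 of 71 old SEC (14.1%, 6.97% to 24.4%). Sinusoidal-like E7 held 2 of 24 young AEC and 59 of 70 young SEC, and 0 of 23 old AEC and 44 of 71 old SEC. Young AEC thus included cells of sinusoidal type, and old SEC included cells of arteriolar type. Among all AEC of the series, those in E7 all had library numbers above 26000. The intervals of the 2 AEC groups overlap, and the mouse of a cell is unknown. The mixture thus describes these libraries, and whether it differs by age was not tested. Clusters E1 and E2 held 2 young AEC, 9 young SEC, 2 old AEC and 5 old SEC. Where a gene moves with this mixture, its log2 ratio is given again between the 15 young and 20 old AEC of E3 to E5 and the 59 young and 44 old SEC of E7, called matched clusters below. Since the clusters were made from these genes, that ratio describes the mixture and supports nothing by itself.

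Across the transcriptome, 9562 genes passed a filter of a mean of 10 CPM and a mean of 10% of cells with a count over the 4 groups. Of these, 597 (6.24%) were more than 4-fold higher in young AEC and 810 (8.47%) in young SEC, together 14.7%. In old mice, 462 (4.83%) were more than 4-fold higher in AEC and 1022 (10.7%) in SEC, together 15.5%. For scale, the same population drawn from 2 library-number ranges also differed by more than 4-fold at many genes: 8.8% between young AEC above and below library number 26000, 9.6% between the same ranges of old AEC, 5.83% between an earlier range of young SEC (46 cells) and a later one (24 cells), and 8.01% between the same ranges of old SEC (47 and 24 cells). A 4-fold difference of a single gene is therefore no sign of zonation by itself in these data.

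The zonal genes of the young mice mostly kept their side in old mice. Of the 597 genes higher in young AEC, 477 (79.9%) were on the AEC side in old mice, 370 (62%) were past 2-fold and 222 (37.2%, 33.3% to 41.2%) past 4-fold, against 44.3%, 15.2% and 4.83% of all genes. Among the 810 genes higher in young SEC, 613 (75.7%) were on the SEC side in old mice, 448 (55.3%) past 2-fold and 300 (37%, 33.7% to 40.5%) past 4-fold, against 55.7%, 23.7% and 10.7% of all genes. The shares past 4-fold were 40.9% of AEC-higher and 61.5% of SEC-higher genes with AEC below 26000 and the same SEC. The genes past 4-fold at both ages made up 48.1% of the AEC-higher and 29.4% of the SEC-higher genes of old mice. The median log2 ratio of the young AEC-higher genes was 2.90 in young and 1.5 in old mice, and that of the young SEC-higher genes -2.84 and -1.26. The medians of all genes were -0.04 in young and -0.15 in old mice, and the latter became 0.01 with median-of-ratios factors and -0.03 with TMM factors, so ratios in old mice are best read against this shift. Only 48 genes were past 4-fold in opposite directions, 28 of them higher in young AEC and old SEC.

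Holding within an age was read for scale. When young AEC above 26000 were set against SEC of the later range, and AEC below 26000 against SEC of the earlier one, so that no cell was used in both, 360 of 946 AEC-higher genes (38.1%) and 262 of 751 SEC-higher genes (34.9%) were past 4-fold in both contrasts. In old mice these shares were 183 of 688 (26.6%) and 353 of 929 (38%). As shares of the genes of the other contrast they were 59.8% for AEC-higher and 44.2% for SEC-higher genes in young mice and 36.9% and 44.9% in old mice. The within-age shares thus ran from 26.6% to 59.8% by the contrast taken as base, and those across ages from 29.4% to 48.1% by the age taken as base, or up to 61.5% with AEC below 26000, so failure to hold in old mice cannot be told apart from the spread between samples of cells.

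**Figure D1:**
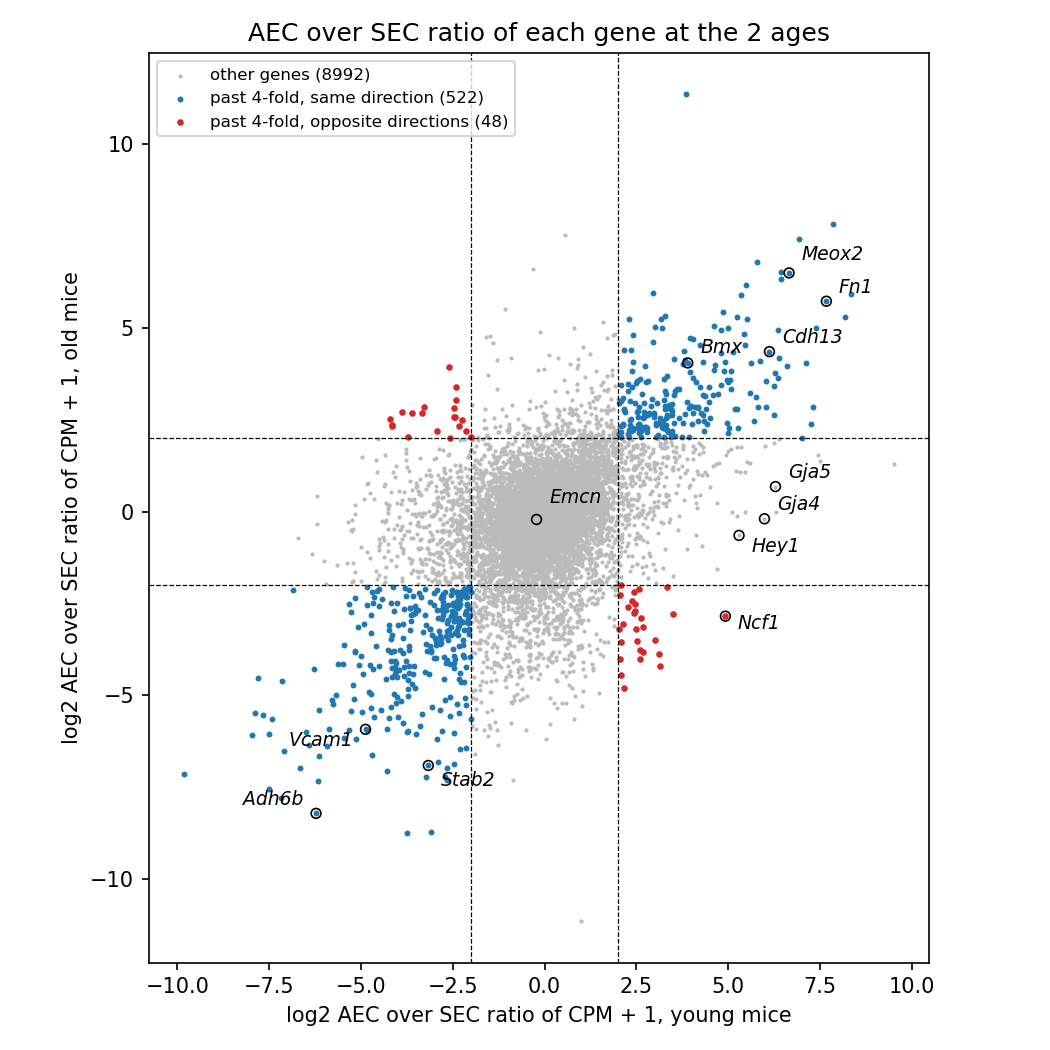
Log2 ratio of AEC over SEC in young mice (horizontal axis) and in old mice (vertical axis) for the 9562 genes that passed the filter, 1 point a gene, with lines at 4-fold. The 222 genes past 4-fold toward AEC at both ages lie in the upper right and the 300 past 4-fold toward SEC in the lower left, and 48 lie in the other 2 corners.

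A stricter set was drawn from the genes past 4-fold at both ages: those also past 4-fold against SEC of either library-number range and with a count in at least 50% of cells of the higher population at both ages. It held 79 SEC-higher and 35 AEC-higher genes. Against AEC below library number 26000, which had no part in choosing them, and the same SEC, which had, 71 of the 79 and 27 of the 35 were past 4-fold at both ages. Without clusters E1 and E2 these were 76 of the 79 and 33 of the 35. That comparison reuses most of the cells that chose the genes, so it is no separate check. With AEC below 26000, 526 of all 9562 genes were past 4-fold toward AEC and 576 toward SEC in young mice, and 336 and 753 in old mice. These are counts at single ages. Of the 526 and 576 genes, 40.9% and 61.5% were past 4-fold in old mice too. How much of the holding comes from the shared SEC was not tested. The cell with most counts of a gene held a median of 7.93% of them among the 70 young SEC and 10.4% among the 71 old SEC, and 22.9% among the 24 young AEC and 24.3% among the 23 old AEC, so that the AEC side, with fewer cells, rested more on single cells.

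Among the sinusoidal genes that held were those of an adhesion molecule, a secreted guidance cue and an enzyme. Vcam1, the adhesion molecule that holds blood cells through their VLA-4 integrin, had 108 CPM (99.9 to 116) in young AEC and 3194 CPM (3170 to 3218) in young SEC, and 31.7 CPM (27.5 to 36.4) in old AEC and 1988 CPM (1969 to 2007) in old SEC. In single young cells its median was 1.5 CPM in AEC and 2938 CPM in SEC (highest 1132 and 8486), and in single old cells 0 and 1847 CPM (highest 757 and 6089). Most SEC thus lay above all or nearly all AEC, with log2 ratios of -4.88 in young and -5.93 in old mice. Sema3a, a secreted semaphorin that repels growing axons and endothelial cells, was next to absent from young AEC, with 3 counts in all against 328 CPM in young SEC (706-fold without the added CPM, 242 to 3430), and stood at 11.3 and 284 CPM in old AEC and SEC. Of the 72 counts in old AEC, 98.6% came from 1 cell. Adh6b, of the alcohol dehydrogenase family, had 2.01 and 224 CPM in young AEC and SEC and no count in old AEC against 296 CPM in old SEC, at least 628-fold lower at a floor of 3 counts over the group. Its near relatives in the genome can share reads with it, so its level is uncertain.

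Further genes of this set covered signalling, junctions and the matrix. Cxadr, a junction protein and virus receptor, had log2 ratios of -5.79 and -5.13 in young and old mice, and reached 10 CPM in 55 of 70 young SEC and 2 of 24 young AEC. C5ar2, a receptor for the complement fragment C5a, had 1 count in AEC of each age against 104 CPM in young SEC (672-fold, 120 to 26500) and 72.3 CPM in old SEC (460-fold, 82.5 to 18200). These intervals are wide because the AEC side rests on 1 count. Adamts5, a protease that cuts aggrecan, had log2 ratios of -4.19 and -5.32, with 10 CPM or more in 69 of 70 young SEC but 44 of 71 old SEC. Tgfbi, a matrix protein induced by TGF-beta, had -4.33 and -4.56, and the protease inhibitor Serpina3g, one of a family of close copies whose reads may mix, -4.23 and -5.61. The transcription factor Glis3 had -4.65 and -5.58, the kinase Cdk18 -5.47 and -6.16, the endosomal GTPase Rhod -4.06 and -4.42, and the channel-like protein Tmem37 -4.29 and -7.07, the last with 1 count in old AEC (984-fold, 177 to 38900). With AEC below 26000 all 9 of these genes and Vcam1, Sema3a and Adh6b were still past 4-fold at both ages, the smallest value being -2.59 for Cdk18 in young mice.

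Known sinusoidal functions were found on the SEC side as groups. Counts of list genes past 4-fold, here and below, are to be read against 6.24% and 4.83% of all genes toward AEC and 8.47% and 10.7% toward SEC in young and old mice. Of 22 venous and sinusoidal identity genes, 21 passed the filter, and 8 were past 4-fold toward SEC in young and 11 in old mice, 6 of them at both ages, against 2 and 1 toward AEC (median log2 ratio -1.64 in young and -2.15 in old). Flt4, the receptor of VEGF-C, had 345.3 and 1796 CPM in young AEC and SEC and 159 and 1480 CPM in old AEC and SEC (-2.38 and -3.21). The P-selectin gene Selp had -2.49 and -2.54, with 99.1% of the old AEC counts in 1 cell, and E-selectin (Sele), which also catches rolling leukocytes, had -4.72 and -3.29, with 98.2% and 99.3% of the AEC counts in 1 cell at each age. Selp went to -1.14 at both ages with AEC below 26000. Lrg1, a secreted modifier of TGF-beta signalling, was abundant in SEC, at 4967 and 3413 CPM in young and old SEC and 704 and 537 CPM in AEC. Ackr1, which binds chemokines on venules, had -2.32 and -5.49. It had -1.68 in young mice against SEC of the later range and -2.55 in old mice with AEC below 26000. An exception was Vwf, the platelet-binding clotting factor and a classical vein marker, which was higher in AEC at both ages (2.56 and 2.15, but in old mice 1.51 against SEC of the later range and 1.78 with AEC below 26000).

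Scavenger receptors and some lysosomal proteases, which serve waste clearance, also lay on the SEC side. Of 30 scavenger and pattern receptors, 21 passed the filter, and 7 were past 4-fold toward SEC and 0 toward AEC at each age, 3 of them (Stab2, Mrc1 and Msr1) at both ages (median -1.57 and -1.24). Mrc1, the mannose receptor, had 122 and 795 CPM in young AEC and SEC and 32.4 and 574 CPM in old AEC and SEC, and 98.5% of the old AEC counts came from 1 cell. Msr1, a receptor for modified lipoproteins, had 3 and 2 counts in young and old AEC, against 44.4 CPM in young SEC (95.8-fold, 32.7 to 465) and 26.9 CPM in old SEC (85.6-fold, 23.6 to 708). Stab1, a relative of Stab2, had -1.67 in young and -3.15 in old mice, and the inhibitory Fc receptor Fcgr2b -0.18 and -3.62. Between matched clusters these young values became -3.74 for Stab1 and -6.99 for Fcgr2b. Cd14 and Lrp1, receptors of endotoxin and of many ligands, were past 4-fold toward SEC in young mice (-3.10 and -2.53, against 0.82 and 0.80 in old mice). In young mice Cd14 had -1.40 against SEC of the earlier range and -4.44 against SEC of the later one. With AEC below 26000 Cd14 had -3.17 in young and -3.33 in old mice and Lrp1 -0.98 and -3.0. Without cells with 7 or more markers of another cell type Lrp1 had 1.30 in young mice. Of 33 lysosomal genes 32 passed the filter, and 5 were past 4-fold toward SEC at each age against 1 and 0 toward AEC (median -0.61 and -0.75), beside 8.47% and 10.7% of all genes toward SEC. Ctsl, a cysteine protease of lysosomes, had 1294 and 6068 CPM in young AEC and SEC and 394 and 4901 CPM in old AEC and SEC, and Lgmn, the asparagine-specific protease, had -2.43 and -4.00. Ctsc, which activates proteases of granules, had -2.14 and -5.25 but -0.77 and -1.14 with AEC below 26000.

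Coagulation factors divided between the zones. Of 17 measured genes of 23, 4 were past 4-fold toward each side in young mice, and 3 toward AEC and 6 toward SEC in old mice (median -0.70 and -0.69). Among those toward SEC at both ages were Tfpi, the inhibitor of the tissue factor pathway (4245 CPM in young and 2679 CPM in old SEC, 475 and 125 CPM in AEC), and Mmrn1, a carrier of factor V, which had no count in old AEC (at least 333-fold lower than old SEC at the same floor of 3 counts) and 38.03 CPM in young AEC. F8, the gene of clotting factor VIII, had 319 and 935 CPM in young AEC and SEC (-1.55) and 8.95 and 690 CPM in old AEC and SEC (-6.12). Among those toward AEC in young mice was Plat, a plasminogen activator (5.99, and 1.78 in old). In old mice Plat had 3.26 against SEC of the earlier range, 0.58 against SEC of the later one and 3.12 with AEC below 26000. The median of the list turned to 0.18 in young mice with AEC below 26000 and to 0.24 in old mice between matched clusters.

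Several SEC-side genes differed more in old than in young mice, but not in every comparison. Epor, the erythropoietin receptor, had -2.66 and -6.97. In matched clusters the young values were -10.47 for Stab2, -5.32 for F8, -6.68 for Epor and -7.79 for Mmrn1, beside -10.51, -9.46, -7.22 and -7.77 in old mice. For Stab2, Epor and Mmrn1 the ages then lay close together, but the added CPM limits such ratios where AEC hold few counts. All old AEC together held 4 counts of Epor and none of Mmrn1. In the comparison with AEC below 26000, F8 had -4.48 in young and -3.68 in old mice, Epor -5.30 and -5.33, Mmrn1 -5.69 and -6.87 and Stab2 -6.39 and -11.72, so F8 and Epor did not differ more in old mice there. SEC levels of these genes were of one order at both ages (Epor 200.3 and 203 CPM), so it was the level of the AEC above 26000 that differed.

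A smaller group of SEC-side genes was carried by few cells and includes markers of mesenchymal stroma. Lepr, the leptin receptor and a marker of stromal cells around sinusoids, had 34.2 and 642 CPM in young AEC and SEC and 17.9 and 267 CPM in old AEC and SEC (-4.19 and -3.83), yet the median cell held 7.26 CPM in young and 3.29 CPM in old SEC against a highest cell of 5065 and 2921 CPM. Hp, the hemoglobin-binding haptoglobin, had -7.97 and -6.08 with a median SEC of 2.80 and 2.42 CPM and a highest of 19510 and 4210 CPM. A few marrow cells thus set these sums. The adipokine Adipoq, at 263 CPM in young and 64.9 CPM in old SEC, reached 10 CPM in 16 of 70 and 9 of 71 cells, and the bone matrix gene Ibsp in 26 of 70 and 9 of 71. Tnc, a matrix glycoprotein of stroma (-6.18 and -7.32), and Chrdl1, a BMP antagonist (no count in young AEC, at least 292-fold lower), had the same pattern, with 15 and 13 of 70 young SEC at 10 CPM or more. Without clusters E1 and E2 the log2 ratios of Lepr became -2.01 and -2.56, those of Hp -5.34 and -4.64, and those of Ptprd, a receptor tyrosine phosphatase with -3.86 at both ages, -1.86 and -1.97. Without cells with 7 or more markers of another cell type, Ptprd had 0.15 and -1.07 and Lepr -1.05 and -2.23. Summed over 17 mesenchymal markers, AEC held 3321 and 4725 CPM and SEC 7453 and 4908 CPM in young and old mice, most of it Cxcl12, and 13 young and 8 old SEC carried 7 or more of them. Their part in these ratios was not tested beyond leaving out those cells.

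Among the arteriolar genes that held were those of a cadherin, a protein of caveolae and a protein of the matrix. Cdh13, a cadherin anchored in the membrane by a lipid that binds adiponectin, had 604 CPM (585 to 623) in young AEC and 7.71 CPM (6.59 to 8.96) in young SEC, and 876 CPM (853 to 899) in old AEC and 41.8 CPM (39.05 to 44.7) in old SEC. Single young AEC ran from 0 to 2522 CPM with a median of 132, and old AEC from 0 to 6093 with a median of 602, whereas the median SEC was at 0 at both ages. At least 10 CPM was found in 16 of 24 young and 17 of 23 old AEC and in 3 of 70 and 8 of 71 SEC. Cav1, the main protein of caveolae, stood at 2492 and 2520 CPM in young and old AEC and 37.1 and 213 CPM in SEC, and was carried by 20 of 24 young AEC and all 23 old AEC (log2 ratios 6.03 and 3.56). Sparcl1, a matrix-associated protein, had 2051 and 20.4 CPM in young AEC and SEC and 1961 and 126 CPM in old AEC and SEC (6.58 and 3.96). The old SEC level of all 3 genes lay above the young one, and 10 old SEC belonged to arteriolar clusters.

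Fn1, the gene of fibronectin, led the 35 AEC-higher genes when each was ranked by the smaller of its ratios at the 2 ages (7.67 in young, 5.73 in old), with 435 and 1.14 CPM in young AEC and SEC and 3454 and 64.1 CPM in old AEC and SEC. A single old AEC held 83.8% of the old AEC counts (54370 CPM, against a median of 114), and without the highest cell of each group the log2 ratio in old mice was 3.57. Ackr3, an atypical receptor that takes up CXCL12, had 222 and 14.7 CPM in young AEC and SEC and 295 and 15.9 CPM in old AEC and SEC (log2 ratios 3.83 and 4.13). It was carried by a part of the AEC, with 10 CPM or more in 8 of 24 young and 11 of 23 old cells. S100a6, a calcium-binding protein, had 4.62 and 4.00 and was found at that level in 19 of 24 young and 21 of 23 old AEC. Clic5, an actin-linked channel protein, had 4.96 and 3.59, Alpl, the alkaline phosphatase also made by osteoblasts, 5.07 and 3.84, and Tcf15, a transcription factor of fatty acid uptake in heart capillaries, 5.75 and 3.13. Ablim3, an actin-binding protein, had 6.24 and 3.43, the phosphoglucomutase relative Pgm5 3.32 and 3.69, the heat shock protein Hsph1 2.91 and 3.06 and the synaptic adaptor Apba1 3.29 and 2.89. Apba1 rested on few cells, with 10 CPM or more in 7 of 24 young and 5 of 23 old AEC, and Pgm5 on 9 of 24 and 9 of 23.

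Genes of the arteriolar set that other cells could set were seen too. Des, the intermediate filament of pericytes and muscle, had 4.98 and 3.52, but 1 cell held 65.9% and 78.1% of the AEC counts, and without clusters E1 and E2 the ratios were 1.14 and -0.57. Cdh23, a cadherin of hair cells, had 5.86 and 4.10, and with AEC below 26000 2.16 and -1.05, so that its side in old mice rested on the AEC above 26000. Pgm5 went to 1.20 in old mice with AEC below 26000. Of 13 pericyte and smooth muscle markers, AEC held 4268 CPM in young and 5096 CPM in old mice, with 48.4% and 50.8% of these counts in 1 cell, and SEC held 2442 and 2871 CPM, with Cspg4 and Higd1b at 0 in young SEC. Acta2, the actin of smooth muscle, had 718 and 2074 CPM in young and old AEC and 1.23 and 33.1 CPM in SEC, but -0.08 and 1.03 between matched clusters. In SEC most of the pericyte sum was Abcc9, a potassium channel subunit, which was found at 10 CPM or more in all 70 young SEC (1668 CPM).

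**Figure D2:**
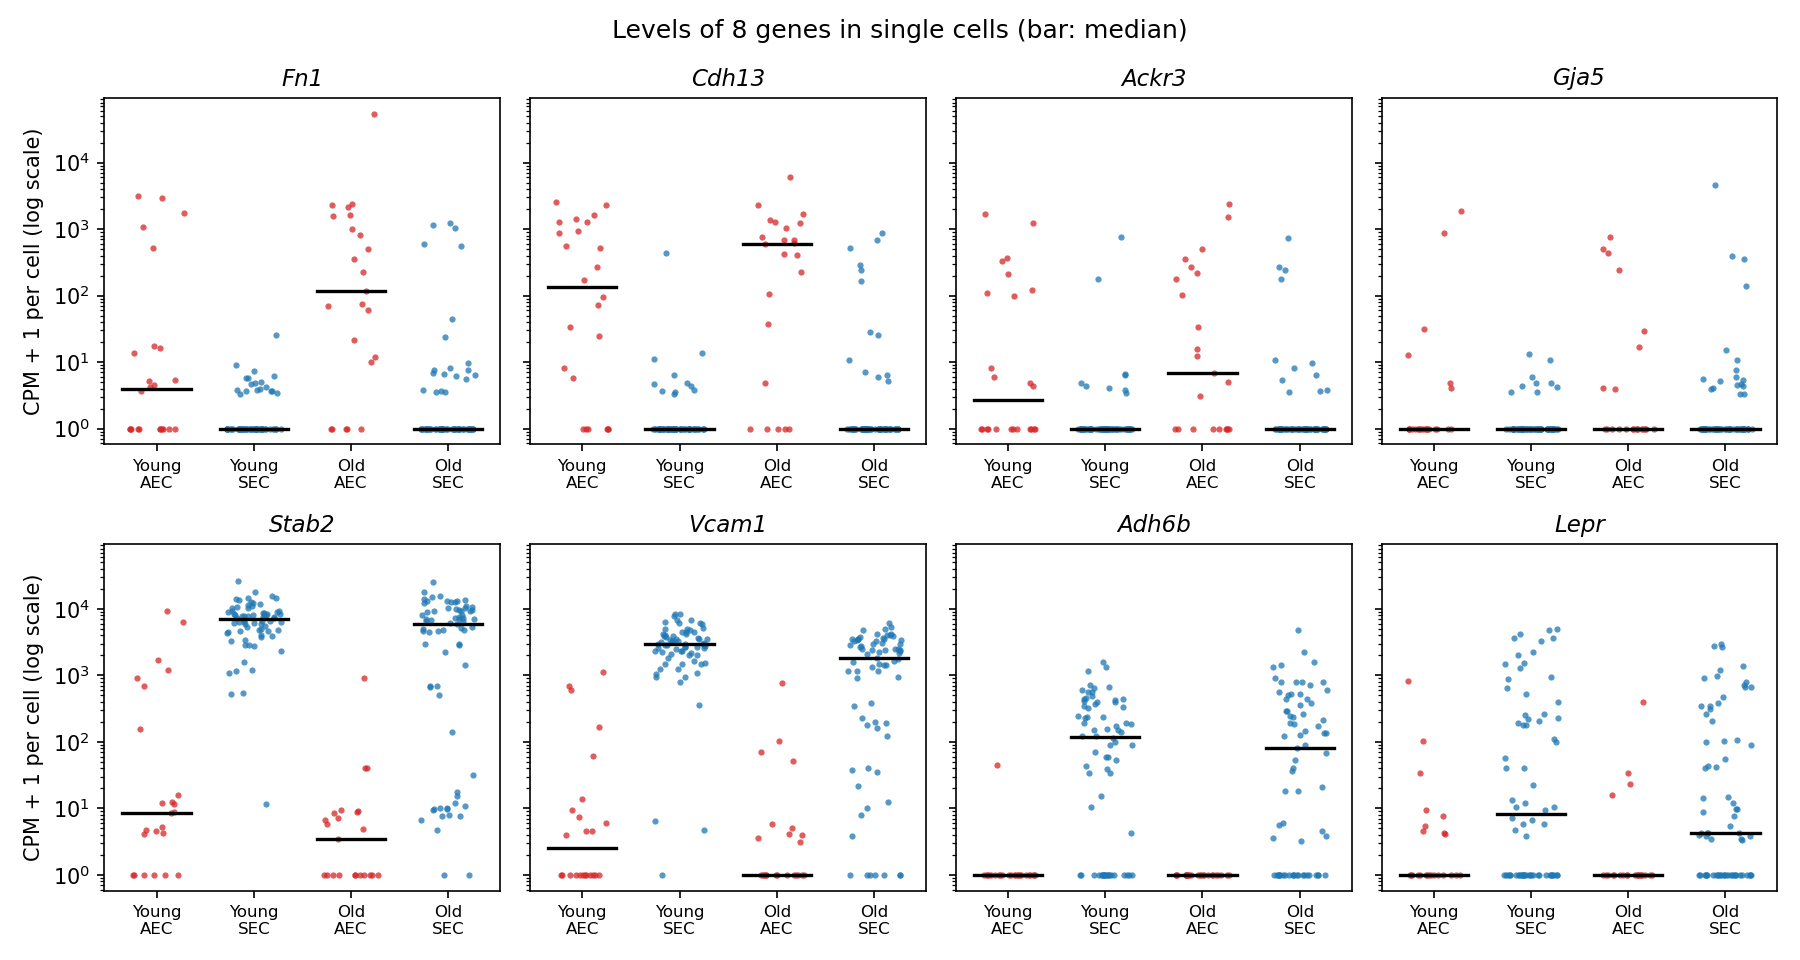
CPM of 8 genes in each of the 188 cells (log scale with 1 CPM added), 1 point a cell and a bar at the median, for young AEC, young SEC, old AEC and old SEC. Vcam1 and Stab2 are high in most SEC, whereas Lepr and Adh6b are carried by some of them, and Fn1, Cdh13, Ackr3 and Gja5 by some of the AEC.

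Caveolae, capillary transport and the basement membrane followed the AEC side in part. Of 35 endocytosis and caveolae genes 33 were measured, and 5 and 4 were past 4-fold toward AEC and 1 and 2 toward SEC in young and old mice (median 0.09 at both ages). Cav1, Cav2, Ptrf and Ehd4 held in AEC (Ptrf 2.01 and 2.11, but 1.90 in old mice with AEC below 26000). Ehd4 had 3.36 and 2.18, but 1.85 in old mice against SEC of the later range. Other listed genes of caveolae were not past 4-fold at either age (Ehd2 1.27 and 0.95, Pacsin2 1.38 and 1.10, Sdpr 0.07 and 0.58, Prkcdbp 0.08 and -0.14). Dab2, an adaptor of clathrin-coated pits, held in SEC (-2.07 and -2.06, but -1.0 and -1.74 with AEC below 26000). Of 27 genes of lipid uptake and capillary transport 24 were measured, with 8 and 6 toward AEC and 1 at each age toward SEC (median 1.66 and 0.78). Meox2, the partner of Tcf15 in fatty acid transport of heart endothelium, had 114 CPM in young AEC against 3 counts in young SEC (829-fold, 283 to 4030) and 199 and 1.21 CPM in old AEC and SEC (log2 ratio 6.50). Aqp7, a glycerol channel, had 102 and 0.18 CPM in young AEC and SEC, and 92.0 CPM in old AEC against 3 counts in old SEC (636-fold, 216 to 3090). Both genes were nearly lacking in SEC at both ages, where the added CPM limits the log2 ratio. Without it Meox2 was 165-fold higher in old AEC (111 to 255), less than in young, and Aqp7 557-fold higher in young AEC (216 to 2050). Slc27a1, a fatty acid transporter, went the other way (-2.83 and -3.57, but -0.70 in old mice against SEC of the later range). Of 40 basement membrane and matrix genes 34 were measured, 8 and 6 of them toward AEC and 7 and 4 toward SEC (median 0.82 and 0.27). Fbln2, a fibulin of elastic fibres and basement membranes, had 912 and 5.02 CPM in young AEC and SEC and 1439 and 274 CPM in old AEC and SEC (7.24 and 2.39).

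Arterial identity genes separated the zones less in old than in young mice. Of 30 listed genes 28 were measured, and 18 were past 4-fold toward AEC in young mice, 9 in old mice and 8 at both ages, and 1 toward SEC at each age, Mgp in young and the Notch target Heyl in old mice (-0.10 and -3.86, but in old mice -0.72 against SEC of the earlier range and 0.15 without cells with markers of another type). The median of the list was 2.89 in young and 1.43 in old mice. Those that held included Bmx, an arterial tyrosine kinase (3.90 and 4.05), Vegfc, the ligand of Flt4 (3.23 and 2.41), Edn1, the vasoconstrictor endothelin (5.06 and 3.33, but 1.83 in old mice against SEC of the later range) and Unc5b, a netrin receptor (2.37 and 2.26, but 1.11 in old mice with AEC below 26000). Gja4 and Gja5 encode connexins of arterial gap junctions. Gja4 had 253 and 3.01 CPM in young AEC and SEC but 186 and 212 CPM in old AEC and SEC (5.98 and -0.19), and Gja5 had 130.2 and 0.68 CPM in young and 105 and 65.1 CPM in old AEC and SEC (6.28 and 0.68). The AEC level of each was of one order at both ages, and it was old SEC that held counts. In old SEC, Gja4 reached 10 CPM in 11 of 71 cells and Gja5 in 5 of 71, 1 of which held 84.5% of the Gja5 counts. Hey1, a Notch target, had 5.29 and -0.65, the arterial factor Sox17 2.55 and 1.47, the ephrin gene Efnb2 3.67 and 1.52, and the Notch ligand Dll4 2.51 and 1.49. Between matched clusters, Gja4 had 7.05 in young and 7.37 in old mice, Gja5 6.87 and 6.20, Hey1 6.55 and 3.11, and the median of the list 3.90 and 4.15. That comparison also leaves out cells of E1, E2 and E6, and the clusters were made from such genes, so what part the 14.1% of old SEC in clusters E3 to E5 have in the smaller ratios of old mice was not tested. Old mice had 0.70 for Gja4, 2.44 for Gja5 and 2.70 for Hey1 with AEC below 26000. Mgp, a matrix protein of arteries, was past 4-fold toward SEC in young mice (-2.18) but had 0.13 without clusters E1 and E2.

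Transcription factors past 4-fold lay mostly toward AEC in young mice and on both sides in old mice. Of 47 listed factors 38 were measured, and 10 and 4 were past 4-fold toward AEC and 2 and 6 toward SEC in young and old mice (median 0.52 and 0.26). Meox2, Tcf15, Mecom (4.50 and 2.55), a zinc finger factor of stem cells and arteries, and its relative Prdm16 (2.85 and 2.66) held toward AEC, though against SEC of the later range Mecom had 1.20 and Prdm16 1.27 in old mice, and none of the 38 was past 4-fold toward SEC at both ages. Nr2f2, the factor of venous fate, had -1.64 and -2.29, and Maf -1.65 and -2.21, so both passed 4-fold only in old mice while the difference in young mice was of similar size. The flow-induced factors Klf2 (1.08 and 0.99) and Klf4 (1.95 and 1.72) were on the AEC side without passing 4-fold.

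Signalling pathways had genes past 4-fold on both sides. Of 24 Notch genes 21 were measured, with 3 and 1 toward AEC and 4 and 3 toward SEC (median 0.38 and 0.53), and of 36 BMP and TGF-beta genes 31, with 4 and 2 toward AEC and 6 and 5 toward SEC (median -0.13 and -0.21). The BMP antagonists Grem1 and Fst and Chrdl1 accounted for 3 of the 4 BMP-list genes that held in SEC, beside Tgfbi, and all 3 are also made by stroma. Fst had -0.04 in young mice without clusters E1 and E2. Tgfb3, a TGF-beta ligand, was past 4-fold toward AEC at both ages (2.08 and 3.46), but 1 cell held 85.0% and 93.1% of its AEC counts, and without clusters E1 and E2 it had 1.29 and -3.64. Bmp4 was past 4-fold toward SEC in young mice (-3.95) and not in old (-0.51), and had -0.85 in young mice with AEC below 26000. Of 20 genes of the VEGF and angiopoietin axis 16 were measured, 2 and 1 toward AEC and 4 at each age toward SEC (median -0.55 and 0.05). The VEGF receptor Kdr was higher in SEC without passing 4-fold (-0.66 and -1.13), Tek did not differ by much (-0.45 and 0.05), and Esm1, a VEGF-induced proteoglycan, had -3.77 and -4.07 but 0.05 in young mice without clusters E1 and E2. Of 35 axon guidance genes 29 were measured, with 7 and 4 toward AEC and 3 and 2 toward SEC (median 0.40 and 0.21). Past 4-fold toward either side in young mice were thus 7 of 21 Notch, 10 of 31 BMP and TGF-beta, 6 of 16 VEGF and angiopoietin and 10 of 29 axon guidance genes, against 14.7% of all genes, and in old mice 4, 7, 5 and 6 of them, against 15.5%.

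Factors that act on blood stem cells lay on both sides. Of 30 HSC niche factors 22 were measured, 5 and 1 of them past 4-fold toward AEC and 4 and 3 toward SEC (median -0.08 and -0.03), in old mice about the shares of all genes (4.83% and 10.7%). Kitl, the gene of stem cell factor, had 576 and 119 CPM in young AEC and SEC and 599 and 169 CPM in old AEC and SEC (2.26 and 1.82, but 4.01 and 2.62 without clusters E1 and E2, 5.07 and 3.24 without cells with markers of another type, and 2.01 and 1.47 with AEC below 26000), and reached 10 CPM in 20 of 24 and 21 of 23 AEC but in 19 of 70 and 23 of 71 SEC. Cxcl12, the chemokine that holds stem cells in the marrow, was higher in summed young SEC (1682 and 5519 CPM) and about even in old mice (3114 and 3570 CPM). The median cell told otherwise, with 450 CPM in young AEC and 79.1 CPM in young SEC, and 2568 CPM in old AEC and 56.4 CPM in old SEC, and the highest SEC held 44920 CPM. Without clusters E1 and E2 the log2 ratio went from -1.71 to 0.67 in young and from -0.20 to 0.87 in old mice. Igfbp3, which binds insulin-like growth factors, was past 4-fold toward AEC at both ages (2.82 and 3.57), and Spp1, the gene of osteopontin, toward SEC (-7.14 and -4.61), carried by 11 of 70 and 11 of 71 SEC and in old mice at -1.29 without clusters E1 and E2 and -0.55 without cells with markers of another type.

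Among the 27 measured of 31 adhesion and trafficking genes, 8 and 2 were past 4-fold toward AEC and 4 at each age toward SEC (median 0.70 and 0.04), beside 6.24% and 4.83% of all genes toward AEC and 8.47% and 10.7% toward SEC. Vcam1, Sele and Selp, which capture leukocytes, held in SEC, and Cdh13 and Cd44, the hyaluronan receptor, in AEC (Cd44 2.52 and 3.55, but -2.78 in old mice with AEC below 26000). The sialomucin genes Podxl (4.30 and 1.62) and Cd34 (3.68 and 0.94) were past 4-fold toward AEC in young mice. In old mice Podxl had 2.63 with AEC below 26000 and 5.55 between matched clusters, and Cd34 1.55 and 4.65, whereas Emcn, another of this kind, did not separate the zones. Of 24 junction and barrier genes 19 were measured, with 4 and 1 toward AEC and 0 toward SEC (median 0.44 and 0.33). Jam2, a junction molecule, had 5.00 and 1.65. Of 28 genes of shear response and vascular tone 22 were measured, 7 and 4 toward AEC and 1 and 2 toward SEC (median 0.23 at both ages), with Ednrb, an endothelin receptor (4.58 and 3.19), and Ace, the angiotensin-converting enzyme (3.21 and 2.31, but 1.79 in old mice against SEC of the later range), held in AEC. Nos3, which makes nitric oxide, had 2.52 and 1.76.

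Immediate early and stress genes were tilted toward AEC. All 29 immediate early and stress genes were measured, and 7 and 4 were past 4-fold toward AEC and 0 toward SEC (median 0.72 and 0.90). The medians were 0.48 and 0.45 against SEC of the later range, and 1.02 and 1.12 against SEC of the earlier one. Atf3, a stress-induced factor, had 1652 and 263 CPM in young AEC and SEC and 3002 and 326 CPM in old AEC and SEC (2.64 and 3.20). Gadd45b had 2.36 and 3.39, and Fos, the most used mark of dissociation, 0.51 and 0.64. Against SEC of the later range Atf3 had 1.93 and Gadd45b 1.51 in young mice. AEC were digested longer, but digestion differs together with location, bones and gate. Its part cannot be told apart from theirs and was not tested. Of 35 interferon response genes 29 were measured, with 5 and 3 toward AEC and 1 at each age toward SEC (median 0.81 and 0.18). Irf1, which switches on such genes, had 1336 and 303 CPM in young AEC and SEC and 2181 and 256 CPM in old AEC and SEC (2.14 and 3.09). Against SEC of the later range it had 1.72 in young mice. Irf7 had 2.79 and -0.43. Of 30 chemokines and receptors 19 were measured, 3 at each age toward AEC and 3 and 4 toward SEC (median -1.01 and 0.45), and with AEC below 26000 the young median was 0.23. Among 23 measured of 25 antigen presentation genes, 1 and 2 lay toward AEC and 0 and 1 toward SEC (median 0.10 and -0.30).

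Metabolic lists differed among themselves. Of 19 iron and heme genes 17 were measured, with 1 at each age toward AEC and 6 and 4 toward SEC (median -0.93 and -0.74). Trf, the gene of transferrin, had 2.47 and 48.2 CPM in young and 0.94 and 35.3 CPM in old AEC and SEC (-3.82 and -4.22), and Slc40a1, the iron exporter, -4.83 and -2.53 (-1.79 in old mice against SEC of the later range). Hmox1, which breaks down heme, had -2.26 and -1.79, but 1.40 and 0.42 with AEC below 26000. Of 41 nuclear genes of oxidative phosphorylation 39 were measured, with 1 and 0 toward AEC and 0 toward SEC (median 0.05 and -0.42), and of 28 glycolysis and hypoxia genes 21, with 1 and 2 toward AEC and 3 and 2 toward SEC (median 0.15 at both ages). Only 7 of 22 proliferation genes passed the filter, 1 and 0 toward AEC and 0 and 2 toward SEC (median 1.00 and -0.15), and the young median was -0.03 between matched clusters.

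**Figure D3:**
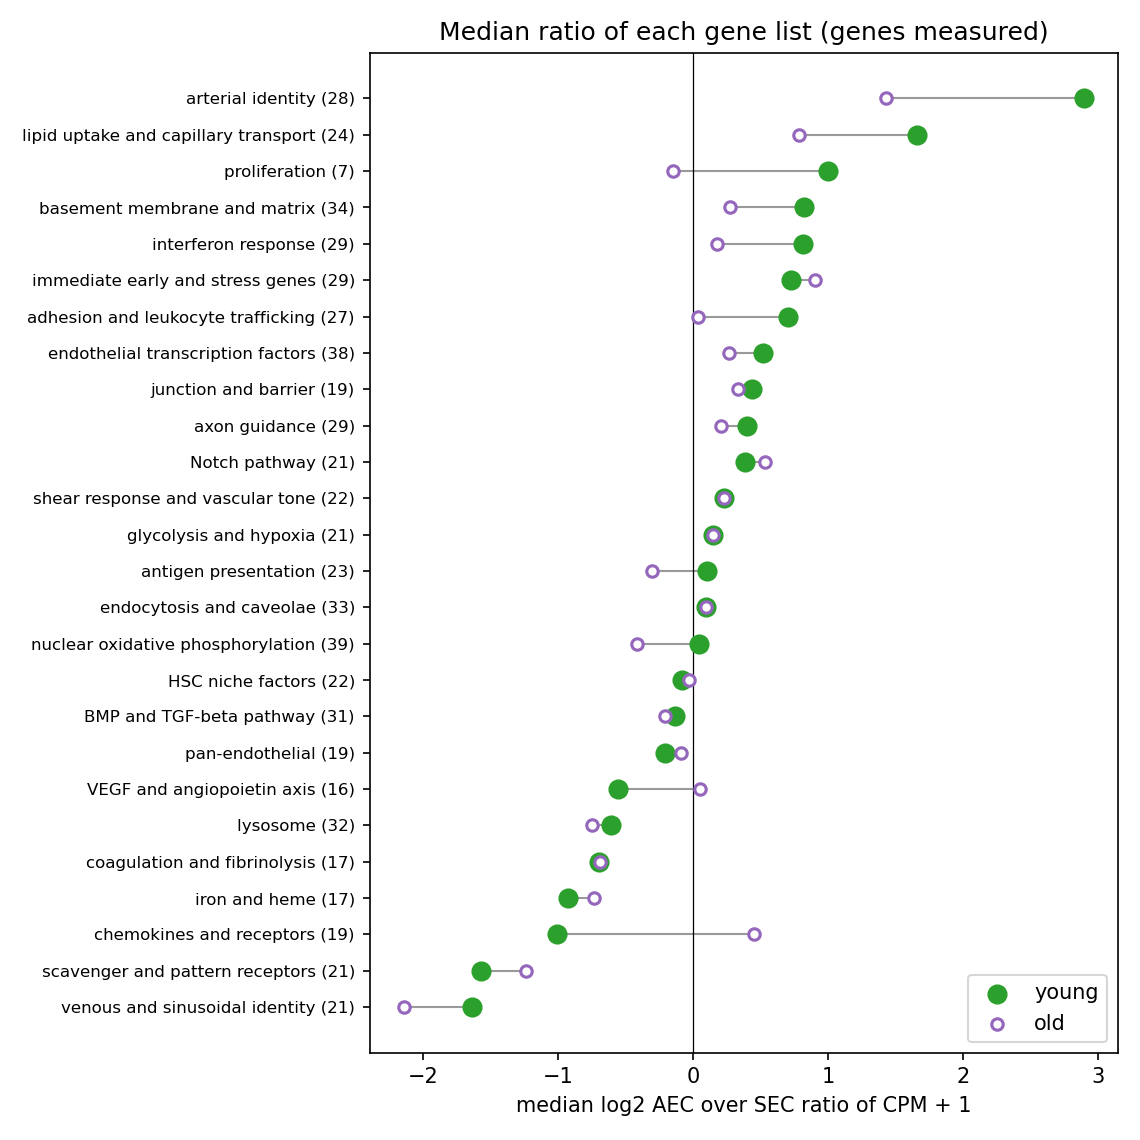
Median log2 ratio of AEC over SEC in young and old mice for each of the 26 gene lists, filled for young and open for old mice, with a line at 0. Arterial identity lies farthest toward AEC (2.89 in young, 1.43 in old) and venous and sinusoidal identity farthest toward SEC (-1.64 and -2.15).

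Genes that were zonal at 1 age only were mostly not past 4-fold against other AEC. Genes past 4-fold at 1 age, on the other side or within 0.5 of 0 on the log2 scale at the other, and with a count in at least 25% of the higher population numbered 123 for young AEC, 189 for young SEC, 78 for old AEC and 256 for old SEC. With AEC below 26000 and the same SEC, 40 (32.5%), 29 (15.3%), 19 (24.4%) and 43 (16.8%) of these were past 4-fold. Of all 9562 genes, 526, 576, 336 and 753 were past 4-fold in that comparison. In the median gene, 41.6% of the young AEC counts and 42.7% of the old AEC counts came from 1 cell, and 18.5% of the young SEC and 20.1% of the old SEC counts, against 22.9%, 24.3%, 7.93% and 10.4% for the stricter set above, which asked for a count in more cells. Among those with the largest difference between ages were, for young AEC, Ncf1, Mphosph10, Shkbp1, Nt5dc1 and Tubgcp5, for young SEC, Islr, Purg, Shmt2, Slc35a5 and Ctsh, for old AEC, Gfpt2, Prim2, Zfp758 and Cxcl1, and for old SEC, Mettl8, Shkbp1, Laptm5, Gpr137 and Tubgcp5. Ncf1, a subunit of the phagocyte oxidase, had 36.2 CPM in young AEC of which 97.4% came from 1 cell. Gfpt2, of the hexosamine pathway, had 6.62 in old mice, with 97.9% of the old AEC counts in 1 cell and 1.71 without it. Islr, a marker of stroma, had -6.20 and 0.42 and the lysosomal protease Ctsh -6.20 and -0.34, where young AEC held 2 counts of Ctsh (307-fold, 85.0 to 2540), yet with AEC below 26000 the young ratio of Ctsh was 0.21. Cxcl1, a neutrophil chemokine, had -1.60 and 4.74 and was carried by 7 of 23 old AEC, but stood at 3.76 in young mice with AEC below 26000. Gpr137 had 0.80 and -5.63 with no count in old AEC (at least 103-fold lower), and Laptm5, a lysosomal protein of blood cells, 1.49 and -4.94 with 65.8% of the old SEC counts in 1 cell.

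Aplnr, the apelin receptor of veins and sprouting vessels, lay on opposite sides at the 2 ages. It had 646 CPM in young AEC and 125 CPM in young SEC (2.37), and 63.4 CPM in old AEC and 348 CPM in old SEC (-2.44), with 10 of 24, 17 of 70, 5 of 23 and 28 of 71 cells at 10 CPM or more. The signs were the same between matched clusters (2.86 and -2.63) and against either library-number range of SEC, but with AEC below 26000 the young ratio was 0.80. Htra1, a secreted protease, had 1.04 and 4.48, and 1.40 and 4.63 with AEC below 26000, but 2.86 and 4.12 without clusters E1 and E2 and 3.88 and 3.51 without cells with markers of another type, so its difference between ages depended on which cells were left out.

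Markers of other cell types were read in full, since few cells of another type can set a summed ratio. Of 15 leukocyte markers, 12 to 14 had a count in a group and their sum was 405 and 271 CPM in young and old AEC and 573 and 870.1 CPM in young and old SEC. Srgn, a proteoglycan gene also made by endothelium, was the most abundant at 187 to 287 CPM, and Cybb and Cd48 were among those at 0 in 3 groups each. Of the 7 that passed the filter, none was past 4-fold in young mice and 5 were past 4-fold toward SEC in old mice (median -0.36 and -3.25), where 1 SEC carried 13 of the 15 and 1 cell held 29.4% of the counts. Of 12 neutrophil markers the sum was at most 49 CPM (old SEC) and Mmp8 was at 0 in all 4 groups. Of the macrophage markers, Fcgr1 was at 0 in all groups and C1qb and Cd5l at 0 in 3 groups each. Of 11 measured erythroid markers the sum was 42.8 and 9.74 CPM in AEC and 265 and 224 CPM in SEC, mostly Epor except in old AEC. The part of other cells in these sums was not tested.

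Megakaryocyte markers differed. Their sum over 13 genes was 13.0 and 33.5 CPM in young and old AEC, 25.7 CPM in young SEC and 914 CPM in old SEC, where 3 cells carried 7 or more of them and 1 cell held 61.2% of the counts. Itga2b, the platelet integrin, made up 378 CPM of it and had a log2 ratio of -6.17 in old mice, but 0.28 between matched clusters. Pf4, the platelet chemokine, had 743 counts in old SEC and none in old AEC. Of 12 lymphocyte markers the sum was 0.15, 0.91, 2.98 and 24.7 CPM in young AEC, young SEC, old AEC and old SEC, with Ms4a1 at 0 throughout and 95.9% of the old SEC sum in 1 cell. Of 14 osteoblast and chondrocyte markers the sum was 363 CPM in young and 364 CPM in old AEC, nearly all Alpl, and 1082 and 267 CPM in SEC, mostly Ibsp, with Bglap2 at 0 in all groups. Of 7 lymphatic markers the sum was 424 and 177 CPM in AEC and 2052 and 1652 CPM in SEC, mostly Flt4, with Ccl21a at 0 throughout. Of 10 muscle and glia markers the sum was 22.6 to 61.8 CPM. Mesenchymal Lum was at 0 in AEC of both ages, as were Pdgfra and Dcn in young AEC and Adipoq and Grem1 in old AEC. In all, 2 young AEC, 13 young SEC, 3 old AEC and 12 old SEC carried 7 or more markers of 1 other type at 10 CPM or more.

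Sums of the sinusoidal and arteriolar markers restate the mixture, since the clusters were made from the same cells. The sum of 6 sinusoidal markers (Stab2, Emcn, Flt4, Stab1, Vcam1 and Il6st) was 3642 CPM in young AEC and 18570 CPM in young SEC, and 1442 and 14000 CPM in old AEC and SEC. The sum of 8 arteriolar markers, of which the sort gene Ly6a gave 1104, 208, 1465 and 528 CPM in the order that follows, was 3130 and 458 CPM in young AEC and SEC and 3513 and 1433 CPM in old AEC and SEC. The sinusoidal sum was thus lower in the old than in the young AEC, and the arteriolar sum, also in its part beside Ly6a, was higher in the old than in the young SEC.

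The promoters of the genes that held were read for letters of factors known in endothelium, from 250 bases before to 50 after each start (RefSeq, GRCm38.p6). Of the 35 AEC-higher genes 26 had a promoter in the table and of the 79 SEC-higher genes 57, set against 27025 genes in all, with a gene counted once if any of its promoters held the letters on either strand. CACCC, read by KLF factors, was in 76.9% of AEC-higher and 79% of SEC-higher genes and in 59.8% of all. TGGGAA (RBPJ, the Notch effector) was in 19.2% and 40.4% and in 28.3% of all, and TGCTGA (MAF) in 38.5% and 26.3% and in 21.7% of all. Letters of 4 other factors had shares near or below those of all genes, and each interval included the share of all genes. AGATAA, read by factors of the GATA family, was in 3.85% and 5.26% against 12.7%, and CCGGAA (ETS) in 7.69% and 8.77% against 16.7%. ACAAAG (SOX) was in 15.4% and 14.0% against 21.0%, and GTAAACA (FOX) in 3.85% and 0% against 4.05%. TGACTCA (AP1) was in 11.5% and 8.77% against 5.95%, AGGTCA (COUP) in 7.69% and 19.3% against 18.1%, and GTCTAGAC (SMAD) in none of either set against 0.25%. With 26 and 57 genes the intervals are wide (for RBPJ 6.56% to 39.4% and 27.6% to 54.2%), and these shares describe letters, not binding.

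Promoters of 4 AEC-higher and 4 SEC-higher genes are printed, as examples of both sides, 5′ to 3′ on the strand of the gene in lower case, with matches to any of the 10 motifs on either strand in capitals. They lie at chr6:17306085-17306384 (+) for Cav1, the first of its 2 listed promoters, chr1:90203730-90204029 (+) for Ackr3, chr3:90612644-90612943 (+) for S100a6, chr17:44188322-44188621 (+) for Clic5, chr5:13396534-13396833 (+) for Sema3a, chr1:120073731-120074030 (-) for Tmem37, chr13:56609336-56609635 (+) for Tgfbi and chr1:132139636-132139935 (-) for Cdk18. In Cav1 the capitals mark RBPJ letters, in Ackr3 MAF letters at both ends, in S100a6 RBPJ and MAF letters, and in Clic5 those of COUP, MAF, RBPJ and KLF, the last 2 side by side. In Sema3a they mark SOX letters, in Tmem37 those of KLF and an overlap of MAF and AP1 letters, in Tgfbi those of SOX and KLF, and in Cdk18 those of KLF, RBPJ and SOX.
Cav1: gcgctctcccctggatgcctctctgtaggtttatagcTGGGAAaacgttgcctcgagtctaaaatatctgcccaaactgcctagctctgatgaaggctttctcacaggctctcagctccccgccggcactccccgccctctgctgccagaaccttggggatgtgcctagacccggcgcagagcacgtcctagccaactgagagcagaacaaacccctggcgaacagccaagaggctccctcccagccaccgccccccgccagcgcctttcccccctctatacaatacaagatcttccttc
Ackr3: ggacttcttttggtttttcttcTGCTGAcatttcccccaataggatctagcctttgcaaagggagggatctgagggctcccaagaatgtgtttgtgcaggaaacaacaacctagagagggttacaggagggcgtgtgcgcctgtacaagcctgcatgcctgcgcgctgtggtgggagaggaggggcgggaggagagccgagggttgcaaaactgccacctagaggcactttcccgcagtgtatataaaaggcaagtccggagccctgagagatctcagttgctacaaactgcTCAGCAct
S100a6: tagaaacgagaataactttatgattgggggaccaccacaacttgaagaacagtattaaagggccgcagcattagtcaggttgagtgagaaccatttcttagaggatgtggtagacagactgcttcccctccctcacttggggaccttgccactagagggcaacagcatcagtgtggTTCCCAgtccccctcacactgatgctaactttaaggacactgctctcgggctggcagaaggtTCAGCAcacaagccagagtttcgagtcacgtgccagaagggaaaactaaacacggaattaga
Clic5: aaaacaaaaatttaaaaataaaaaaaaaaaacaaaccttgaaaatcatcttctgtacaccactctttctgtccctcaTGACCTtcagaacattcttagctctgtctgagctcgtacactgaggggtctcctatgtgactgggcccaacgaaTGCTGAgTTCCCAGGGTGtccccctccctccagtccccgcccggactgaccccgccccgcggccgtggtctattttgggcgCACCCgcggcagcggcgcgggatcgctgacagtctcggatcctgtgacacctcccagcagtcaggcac
Sema3a: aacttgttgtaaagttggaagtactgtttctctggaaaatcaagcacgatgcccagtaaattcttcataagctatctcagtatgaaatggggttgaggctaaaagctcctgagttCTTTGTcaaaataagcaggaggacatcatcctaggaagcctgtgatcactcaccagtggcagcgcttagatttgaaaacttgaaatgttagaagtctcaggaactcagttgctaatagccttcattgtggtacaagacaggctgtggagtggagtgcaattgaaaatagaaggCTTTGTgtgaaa
Tmem37: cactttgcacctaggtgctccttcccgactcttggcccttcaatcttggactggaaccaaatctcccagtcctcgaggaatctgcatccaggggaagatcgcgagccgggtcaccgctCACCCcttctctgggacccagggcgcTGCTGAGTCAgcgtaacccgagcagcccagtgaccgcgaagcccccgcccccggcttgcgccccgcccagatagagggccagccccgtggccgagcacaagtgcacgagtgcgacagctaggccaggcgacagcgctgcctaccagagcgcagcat
Tgfbi: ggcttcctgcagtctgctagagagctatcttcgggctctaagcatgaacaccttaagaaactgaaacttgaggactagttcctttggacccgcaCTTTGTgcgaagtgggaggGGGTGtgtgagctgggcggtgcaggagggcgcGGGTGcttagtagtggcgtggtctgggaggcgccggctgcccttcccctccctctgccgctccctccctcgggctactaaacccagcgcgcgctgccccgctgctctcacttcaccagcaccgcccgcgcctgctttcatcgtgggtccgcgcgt
Cdk18: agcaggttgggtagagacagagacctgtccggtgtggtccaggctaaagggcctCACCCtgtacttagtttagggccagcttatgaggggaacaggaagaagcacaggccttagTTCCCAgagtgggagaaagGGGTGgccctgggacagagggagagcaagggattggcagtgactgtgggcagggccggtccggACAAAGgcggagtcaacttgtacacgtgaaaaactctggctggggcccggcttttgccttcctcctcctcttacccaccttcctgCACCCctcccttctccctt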

How the data were processed

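The authors aligned the reads with GSNAP to GRCm38.p4 and deposited raw HTSeq counts per gene, made without regard to strand, with 1 column a cell. All 661 columns matched a label, 354 of mesenchymal cells were not used, and of 46078 entries 270 repeated symbols were summed and 37 mitochondrial genes set apart, leaving 45771 nuclear genes. Counts of the 188 cells were summed by population and age and scaled to CPM over 6469201, 21928347, 6368033 and 20725190 counts in young AEC, young SEC, old AEC and old SEC. Genes passed at a mean of 10 CPM and a mean of 10% of cells with a count, and log2 ratios used 1 CPM as pseudocount. With 1 sample a group no test was made. The members and lists were chosen with earlier results of these data known.

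Named genes were those of the lists and markers, the 15 of each side of the stricter set with the largest smaller ratio of the 2 ages, and the 5 of each age and side with the largest difference between ages among genes zonal at 1 age. The genes of the sort served as a check of the labels, though Ly6a also stands among the arteriolar and Ptprc among the leukocyte markers, and Eng in the BMP and TGF-beta list. Among list genes those described were chosen after their values were seen, and some named genes are not reported here. Alternatives were other scalings (mean of CPM, median-of-ratios and TMM factors, cells thinned to 100000 counts), a pseudocount of 0.1, a floor of 3 counts, no filter or 50% of cells, 2-fold and 8-fold, either range of SEC, AEC below library number 26000, matched clusters, and cells left out by cluster, highest count, depth or markers. Code was tested on simulated data. TMM factors came from edgeR 4.0.16 in R 4.3.3. The rest ran in Python 3.11.15 (pandas 2.3.3, matplotlib 3.10.9, scipy 1.17.1 and numpy 2.4.6), with seed 17.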

Additional observations from a re-analysis of the deposited data

Results flagged for a closer look

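Of the named genes, 12 were past 4-fold in opposite directions in young and old mice. With AEC below 26000 none of the 12 was. Past 4-fold at 1 age there were Aplnr (-2.02) and Ncf1 (-3.32) in old mice and Tubgcp5 (2.92) and Purg (-2.30) in young mice. The difference between the ages was not tested, since each group is 1 sample. Log2 ratios of AEC over SEC were 2.37 in young and -2.44 in old mice for Aplnr, 3.13 and -4.19 for Mettl8, 2.58 and -4.02 for Mphosph10, 4.92 and -2.84 for Ncf1, 2.67 and -3.82 for Nt5dc1, 2.08 and -4.44 for Shkbp1, and 2.61 and -3.77 for Tubgcp5. In the other direction they were -2.60 and 3.94 for Prim2, -3.87 and 2.71 for Purg, -4.15 and 2.35 for Shmt2, -3.29 and 2.85 for Slc35a5, and -4.17 and 2.32 for Zfp758.

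Several of these rest on very few counts. Old AEC held no count of Mettl8 (at least 36.7-fold lower than old SEC at a floor of 3 counts over the group) and 2 of Nt5dc1 (55.8-fold, 15.3 to 462). Young AEC held 1 count of Prim2 (38.9-fold lower than young SEC, 6.87 to 1550), 1 of Zfp758 (128-fold, 22.8 to 5060), 3 of Purg (44.1-fold, 15.0 to 214) and 3 of Shmt2 (53.8-fold, 18.3 to 262). All but Aplnr were named because their ratios differed between the ages, so their signs are a description only.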

How the results depend on the processing

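Added after seeing the data were the alternatives without cells under 100000 counts, without cells carrying 7 or more markers of another type, and with genes seen in 50% of cells. No paired analysis was possible because the labels do not name the mouse of a cell. The all-gene median of old mice (-0.15) became 0.01 with median-of-ratios and -0.03 with TMM factors. Of 360 list medians past 0.5 on the log2 scale, 355 kept their sign, and of 3052 ratios of named genes past 4-fold, 3015. All settings but that with AEC below 26000 use the same cells or a part of them. Some named genes were also chosen for large ratios in these cells, so the kept signs are no separate check. With a floor of 3 counts and no pseudocount the arterial median was 2.93 in young and 1.44 in old mice. The cause of the changes below was not tested unless stated.

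Counts of genes past 4-fold are given for young AEC, young SEC, old AEC and old SEC, and shares are of young AEC-higher or SEC-higher genes past 4-fold in old mice. Without a filter 27896 genes gave 1308, 1651, 1129 and 2105, and an AEC share of 27.6%. Past 2-fold were 1639, 1995, 1449 and 2269, with shares of 45% and 43.9%, and past 8-fold 278, 356, 155 and 502, with an AEC share of 27.7%. Genes seen in 50% of cells (4112) gave 119, 135, 84 and 183, and a SEC share of 51.9%. These follow from the number of genes or the fold. With SEC of the later library-number range, 946 genes were higher in young AEC and the AEC share was 26.6%, and with SEC of the earlier range it was 44.1%. Between matched clusters 1622 genes were higher in young SEC and 803 in old AEC, and the AEC share was 51.3%. Without the highest cell of each gene 1692 were higher in young and 1811 in old SEC, with shares of 43.8% and 47.3%. This takes 1 of 24 or 23 AEC but 1 of 70 or 71 SEC, and moved the all-gene median to -0.45 and -0.52. With AEC below 26000 the SEC share was 61.5%, and without cells with markers of another type 40.7%.

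Some medians past 0.5 and ratios past 4-fold changed sign. With AEC below 26000 these were the young medians of the VEGF and angiopoietin axis (0.15), coagulation (0.18) and chemokines (0.23), in young mice Ctsh 0.21, Hmox1 1.40, Mgp 1.6, Prim2 1.72, Shkbp1 -0.69, Shmt2 0.85, Slc35a5 0.25 and Zfp758 0.20, and in old mice Cd44 -2.78, Cdh23 -1.05 and Tgfb3 -1.76. Between matched clusters they were the medians of coagulation in old (0.24) and proliferation in young mice (-0.030), in young mice Acta2 -0.077, Esm1 0.53, Fst 0.12, Mgp 0.63 and Tgfb3 -1.69, and in old mice Itga2b 0.28, Laptm5 0.19, Shmt2 -0.94 and Tgfb3 -4.14. Without clusters E1 and E2 they were Esm1 0.048 and Mgp 0.13 in young and Des -0.57, Shmt2 -0.52 and Tgfb3 -3.64 in old mice. Without cells carrying markers of another type they were Esm1 0.26, Fst 0.058, Lrp1 1.30, Mgp 0.23 and Ptprd 0.15 in young, and Des -0.77, Heyl 0.15, Laptm5 0.0070, Shmt2 -2.37 and Tgfb3 -3.75 in old mice. Without the highest cell they were Tgfb3 -0.12 and Tubgcp5 -0.50 in young mice.

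Depth limits the AEC side most: the floor of 3 counts over 23 old AEC is 0.471 CPM, and single cells below 10 CPM hold few counts of a gene.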
